A study of Sus scrofa with 6 samples.

Results

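ABCB1, ABCA1, ABCC2 and ABCC6 are membrane pumps of the ATP-binding cassette (ABC) family, and their transcripts were followed in pig embryos made by nuclear transfer and in the cultured cells that supplied the nuclei. The members were all probe sets annotated to the 4 genes, which gave 8 of 23999 probe sets: 3 for ABCB1, 1 for ABCA1, 1 for ABCC2 and 3 for ABCC6. They were chosen by their signals, ABCB1 and ABCA1 being far higher in embryos than in the donor cells, so that contrast is given as a description without a test. The differences between treatments and between the trials were not used in the choice and were tested.

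Nuclear transfer (NT) puts the nucleus of a somatic cell into an oocyte whose own chromosomes are removed. Embryos injected with an antibody against DJ-1, a redox-sensitive protein, gave 2 arrays, embryos injected with control IgG gave 2, embryos without injection gave 1, and the donor cells gave 1. All embryo groups had slaughterhouse oocytes as recipients, were cultured in PZM-3 medium, and were collected 28 h after transfer, around the 2-cell stage, in pools of 23 to 26 per sample. The donor cells were labelled as fibroblasts of an adult Meishan pig. Trial 1 held an array of each of the 4 kinds, and trial 2 held new samples of anti-DJ1 and of IgG embryos.

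ABC transporters use ATP hydrolysis to move substrates across membranes, mostly out of the cell. ABCB1 (P-glycoprotein) expels many drugs and other hydrophobic compounds, and ABCC2 exports organic anions and conjugates of glutathione or glucuronic acid. ABCA1 loads cellular cholesterol and phospholipid onto apolipoproteins. ABCC6 is needed for the release of ATP from liver cells, and its loss causes ectopic mineralisation in humans and mice. The transcripts of an embryo at this stage are largely those that the oocyte stored, before most of the embryo's own transcription has begun.

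The values are deposited MAS5 signals, linear probe set brightness scaled so that each array had a trimmed mean of about 500.1 to 500.2, so a level is relative to the other transcripts of its array. The highest of the Tag control probe sets, which have no pig target, lay between 21.4 and 47.0 and served as the limit above which a signal was called detected. Between 55.8% and 71.0% of probe sets were above it. All 10 measured oocyte markers (such as ZP4, BMP15 and KPNA7) were above it on every embryo array, with a summed signal of 84652 to 136243 in embryos and 225 in donor cells. The 14 fibroblast markers summed to 3571 to 4278 in embryos and 97295 in donor cells, and 12 epithelial, endothelial and blood markers to 8967 to 11247 in embryos and 8744 in donor cells. The donor array had high VIM (31965), FN1 (24455) and THY1 (6443), but DCN (5.58), LUM (1.71) and POSTN (22.7) were not above its Tag limit of 34.3, and the epithelial keratins KRT8 (9907), KRT18 (2103) and KRT19 (3598) were high. The label fibroblast is thus met by some markers and not by others, and the text calls these cells donor cells.

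ABCB1 was detected in every embryo sample and not in donor cells. Its leading probe set, Ssc.8764.1.S1_at, had a signal of 1981 (trial 1) and 1747 (trial 2) for anti-DJ1 embryos, in the same order 1803 and 1813 for IgG embryos, and 1485 for non-injected embryos, against 1.89 for donor cells. The 5 embryo arrays lay far from the donor array, which was not above its Tag limit. It lay between the 89.1th and the 91.0th percentile of all probe sets on embryo arrays, and at the 3.37th on the donor array. Set against the donor array's Tag limit of 34.3 instead of the signal itself, the embryo level (geometric mean 1758, n = 5) was at least 51.3-fold higher.

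The other ABCB1 probe sets were designed from a second sequence record. Ssc.16333.1.S1_at had a signal of 115 and 133 in anti-DJ1 embryos, 102 and 113 in IgG embryos and 68.0 in non-injected embryos, against 2.22 in donor cells. It repeated the order of embryos over donor cells, at least 3.03-fold. Ssc.16333.1.A1_at, from the same record, had 36.2 and 27.6 in anti-DJ1 embryos, 35.2 and 15.8 in IgG embryos and 2.78 in non-injected embryos, against 25.5 in donor cells. It was above the Tag limit on 2 of 5 embryo arrays and did not separate embryos from donor cells. In the RefSeq annotation of Sscrofa11.1, ABCB1 neighbours ABCB4, a close relative; whether ABCB4 transcripts bind to these probes was not tested.

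ABCA1, the cholesterol exporter, had a signal of 241 and 281 in anti-DJ1 embryos, 307 and 306 in IgG embryos and 250.2 in non-injected embryos, against 6.89 in donor cells (Ssc.7146.1.A1_at). All embryo arrays were above their Tag limits and the donor array was not, which makes the embryo level (geometric mean 276, n = 5) at least 8.04-fold higher. ABCC2, the organic anion pump, had 714 and 1230.0 in anti-DJ1 embryos, 756 and 1195 in IgG embryos and 467 in non-injected embryos, against 83.8 in donor cells (Ssc.16332.1.S1_at). It was detected on all 6 arrays. The embryo geometric mean of 820 was 9.78-fold that of donor cells, with 8.52-fold in anti-DJ1, 9.02-fold in IgG and 5.58-fold in non-injected embryos when only trial 1, which holds the donor array, is read.

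ABCC6 differed between its probe sets. Ssc.19612.1.S1_at had a signal of 113 and 339 in anti-DJ1 embryos, 102 and 492 in IgG embryos and 72.8 in non-injected embryos, against 54.6 in donor cells. All embryo arrays were above the donor array, by 3.10-fold on average, but within trial 1 by only 2.07-fold for anti-DJ1, 1.87-fold for IgG and 1.33-fold for non-injected embryos. Ssc.16338.1.S1_at had 49.1 and 150.4 in anti-DJ1 embryos, 91.9 and 195 in IgG embryos and 83.4 in non-injected embryos, against 98.5 in donor cells. Here the donor array lay inside the embryo range, above all 3 embryo arrays of trial 1 and below both of trial 2. Ssc.16338.1.A1_at had 4.79 and 5.69 in anti-DJ1 embryos, 33.1 and 5.92 in IgG embryos and 2.40 in non-injected embryos, against 19.2 in donor cells, and was above the Tag limit on 1 array, IgG of trial 1. ABCC6 neighbours ABCC1, another member of the same subfamily, and cross-binding of its transcripts was not tested.

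**Figure D1:**
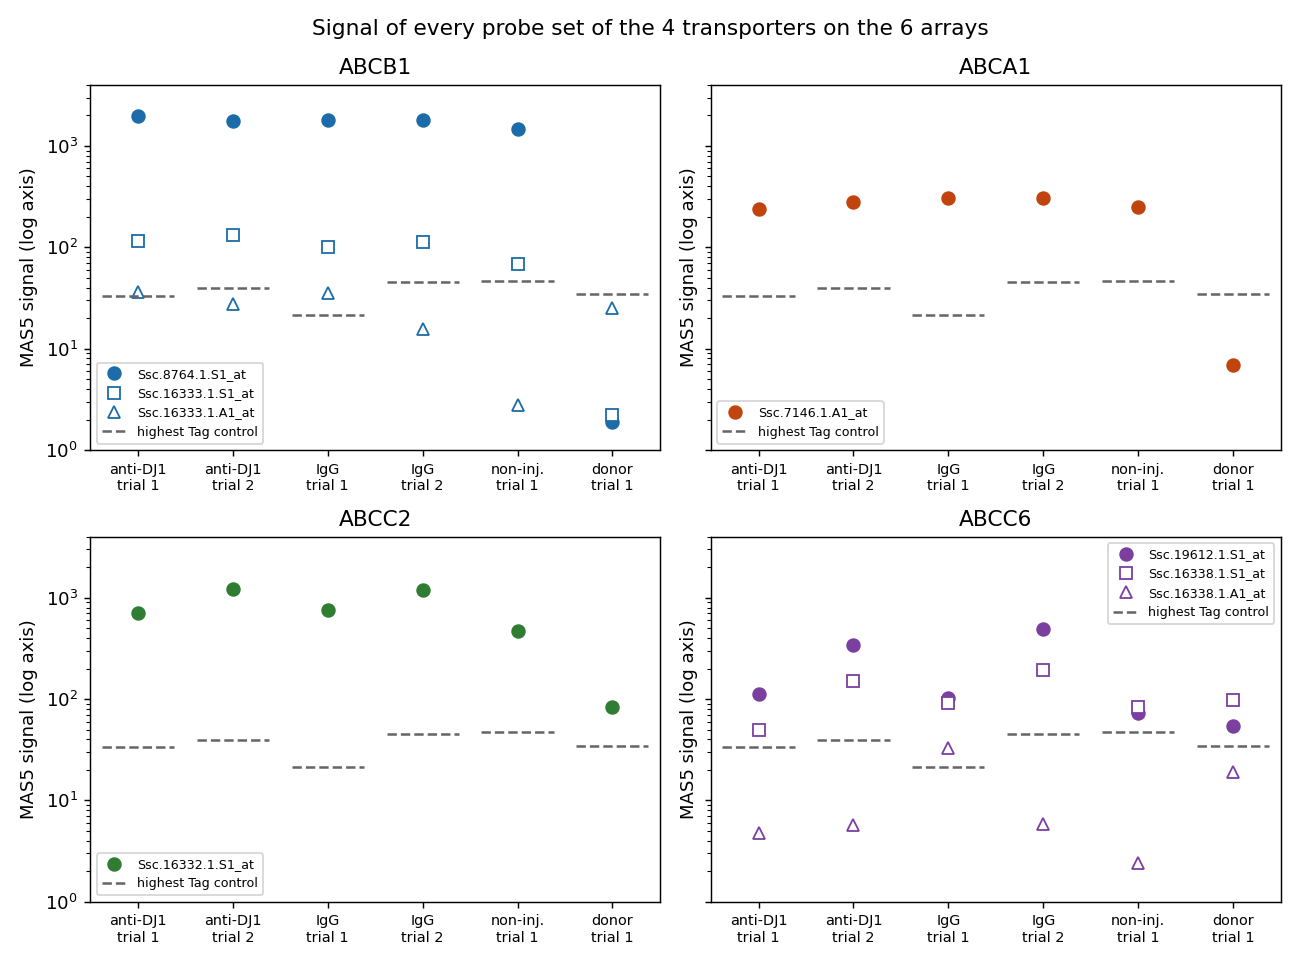
MAS5 signal (log axis) of the 8 probe sets of ABCB1, ABCA1, ABCC2 and ABCC6 on the 6 arrays, 1 point per probe set and array, with dashed lines at each array's highest Tag control. The leading ABCB1 probe set lies between 1485 and 1981 on the embryo arrays and at 1.89 on the donor array, and the A1 probe sets of ABCB1 and ABCC6 lie near or under the limits.

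On the scale used for the tests, log2(signal + 4.57), the differences from a detected donor signal were 3.22 ± 0.58 for ABCC2, 1.57 ± 1.17 for ABCC6 Ssc.19612.1.S1_at and 0.06 ± 0.74 for ABCC6 Ssc.16338.1.S1_at (SD over 5 embryo arrays). For ABCB1 and ABCA1 the donor signal was not above the Tag limit, so a difference on this scale is set by the pseudocount and the bounds given above are what the arrays show. Of the probe sets tested, 10.8% had an embryo mean at least 8-fold above the donor array and 11.3% one at least 8-fold below it. Both shares are on the log2(signal + 4.57) scale, undetected signals included. The leading ABCB1 probe set and ABCA1 by their bounds, and ABCC2 by its fold, were past 8-fold, while Ssc.16333.1.S1_at has a bound of only 3.03-fold; the choice of genes used this contrast. The median of all 14399 probe sets was 0.06 here, 0.42 with quantile normalization and 0.57 with a common 75th percentile. Relative to these medians, ABCC2 stood at 3.16, 3.22 and 3.16, and ABCC6 Ssc.19612.1.S1_at at 1.51, 1.55 and 1.49. ABCC6 Ssc.16338.1.S1_at stood between -0.0048 and 0.14. The ratio of 3′ to 5′ signal of the EF1A control, higher where labelled RNA is shorter, was 8.20 to 30.0 on embryo arrays and 4.23 on the donor array; its part in these differences was not tested. In pooled embryos and cultured cells, fewer cells with a transcript and less of it per cell cannot be told apart.

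Among the embryos, the leading ABCB1 probe set and ABCA1 were steady and ABCC6 was not. Over the 5 embryo arrays the coefficient of variation of the signal was 10.2% for the leading ABCB1 probe set and 11.2% for ABCA1, against a median of 26.3% over all tested probe sets. It was 22.8% for ABCB1 Ssc.16333.1.S1_at, 37.8% for ABCC2, 51.1% for ABCC6 Ssc.16338.1.S1_at and 82.2% for ABCC6 Ssc.19612.1.S1_at, a value larger than in 99.2% of probe sets. The ratio of the highest to the lowest embryo array was 1.28 for ABCA1, 1.33 for the leading ABCB1 probe set, 2.63 for ABCC2 and 6.76 for ABCC6 Ssc.19612.1.S1_at.

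Setting anti-DJ1 against IgG embryos asks what the antibody against DJ-1 changed, and no member passed the test. The leading ABCB1 probe set averaged 1864 ± 166 in anti-DJ1 embryos and 1808 ± 6.83 in IgG embryos (SD, n = 2 each), a log2 difference of 0.04 ± 0.16 (SE, limma, adjusted p = 0.991). The 2 groups overlapped, with the anti-DJ1 array 1.10-fold the IgG array in trial 1 and 0.964-fold in trial 2. The 95% confidence interval of the difference ran from 0.812- to 1.30-fold. For ABCC2 the means were 972 ± 365 and 975 ± 311, a difference of -0.02 ± 0.16 (limma, adjusted p = 0.995), with an interval from 0.770- to 1.26-fold. These were the 2 narrowest intervals among the 6 tested member probe sets.

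ABCA1 averaged 261 ± 28.9 in anti-DJ1 embryos and 307 ± 0.596 in IgG embryos (n = 2 each). Both anti-DJ1 arrays lay under both IgG arrays, at 0.783-fold in trial 1 and 0.919-fold in trial 2. The difference of -0.23 ± 0.25 did not pass (limma, adjusted p = 0.957), and its interval ran from 0.5803- to 1.25-fold. Both ABCC6 probe sets had wider intervals. Ssc.16338.1.S1_at differed by -0.61 ± 0.32 (limma, adjusted p = 0.896, lower in both trials at 0.534- and 0.769-fold) and Ssc.19612.1.S1_at by -0.20 ± 0.28 (adjusted p = 0.972, 1.11-fold in trial 1 and 0.689-fold in trial 2). ABCB1 Ssc.16333.1.S1_at differed by 0.20 ± 0.41 (adjusted p = 0.983). In limma 0% of the 14399 probe sets passed in this comparison, 838 had an unadjusted p under 0.05, and none of the 6 tested members was among them.

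**Figure D2:**
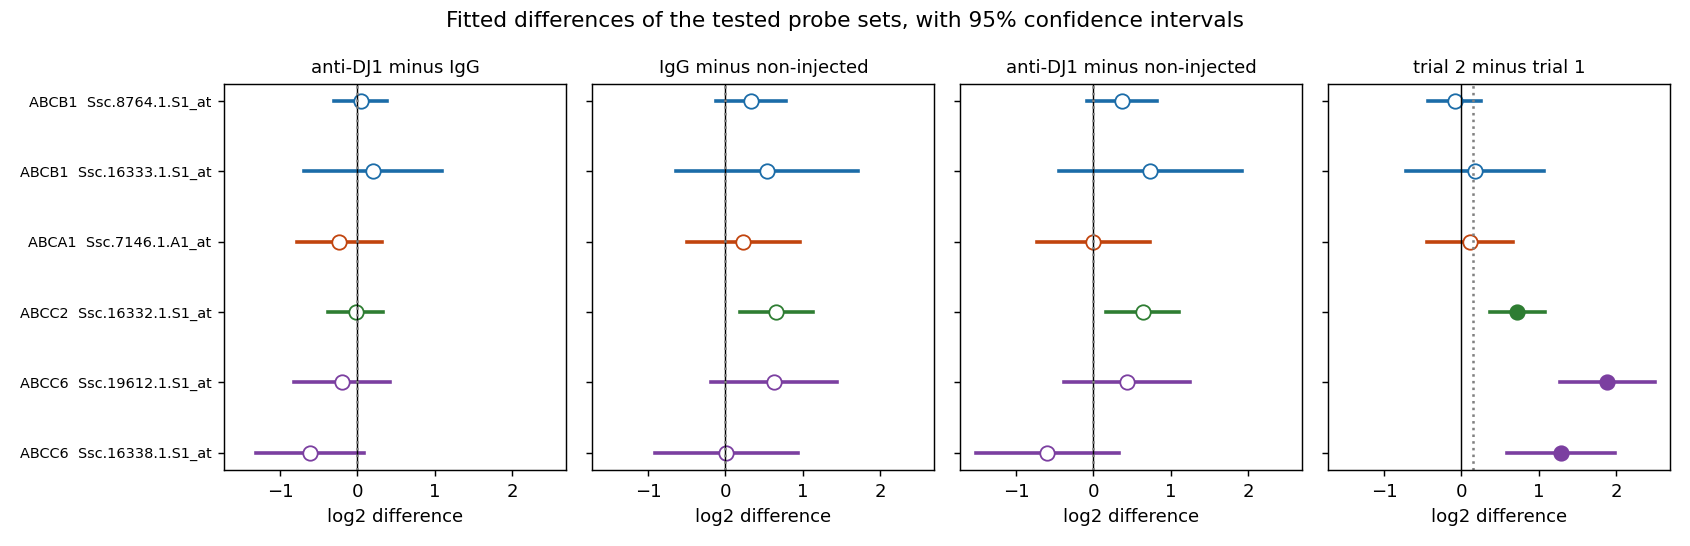
Fitted log2 differences of the 6 tested member probe sets in 4 comparisons, with 95% confidence intervals as bars and the median of all probe sets as a dotted line. Filled points passed at an adjusted p under 0.05: ABCC2 (0.72) and both ABCC6 probe sets (1.88 and 1.29) in trial 2 minus trial 1, and no point in the 3 comparisons of treatments.

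Against the single non-injected array, injected embryos had more ABCC2 signal, but not beyond the error of the fit once all probe sets were considered. In trial 1 the signal was 714 in anti-DJ1 and 756 in IgG embryos, against 467 in non-injected embryos. Anti-DJ1 embryos stood at 0.64 ± 0.22 (SE, limma, adjusted p = 0.142) and IgG embryos at 0.66 ± 0.22 (limma, adjusted p = 0.143), and the intervals ran from 1.12- to 2.15-fold and from 1.14- to 2.18-fold. Both comparisons use the same non-injected array and are not independent. The hybridisation controls added to every sample had a median signal of 6338 on that array, against 3147 (anti-DJ1) and 2937 (IgG) on the injected arrays of trial 1; their part in the differences was not tested.

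The leading ABCB1 probe set had its lowest embryo signal in non-injected embryos, with differences of 0.37 ± 0.21 for anti-DJ1 (limma, adjusted p = 0.384) and 0.33 ± 0.21 for IgG embryos (adjusted p = 0.455). Ssc.16333.1.S1_at was also lowest there, with 0.74 ± 0.54 and 0.54 ± 0.54 (adjusted p = 0.515 and 0.665). ABCA1 stood at 0.00081 ± 0.33 for anti-DJ1 and 0.23 ± 0.33 for IgG embryos (adjusted p = 0.9997 and 0.777). ABCC6 Ssc.19612.1.S1_at stood at 0.43 ± 0.37 and 0.63 ± 0.37 (adjusted p = 0.591 and 0.421). These ABCC6 values rest on the trial term: with no replicate block they were 1.38 and 1.57, and with trial 1 of the injected group also left out 2.15 and 2.68, none of them past the threshold. ABCC2 stood at 0.996 and 1.02 with no replicate block, and at 1.39 and 1.35 with that trial 1 array left out, also not past it. ABCC6 Ssc.16338.1.S1_at stood at -0.59 ± 0.42 and 0.01 ± 0.42 (adjusted p = 0.501 and 0.992), and at 0.0519 and 0.66 with no replicate block. Of the 6 tested member probe sets 0 passed in either comparison in limma, against 1.92% of all probe sets for anti-DJ1 embryos (1.26% higher and 0.653% lower) and 1.26% for IgG embryos (0.917% higher and 0.347% lower). Only ABCC2 was among the probe sets with an unadjusted p under 0.05, which numbered 2663 and 2493.

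More of all probe sets passed between the trials than in any comparison of treatments. Of the members, ABCC2 and ABCC6 were higher in trial 2, while ABCB1 and ABCA1 did not pass. ABCC6 Ssc.19612.1.S1_at had a signal of 339 (anti-DJ1) and 492 (IgG) in trial 2, against 113 (anti-DJ1), 102 (IgG) and 72.8 (non-injected) in trial 1. Trial 2 was higher by 1.88 ± 0.28 on the log2 scale (limma, adjusted p = 4.7e-04), or 3.69-fold. Ssc.16338.1.S1_at rose by 1.29 ± 0.32 (adjusted p = 0.00925), with 3.07-fold in anti-DJ1 and 2.13-fold in IgG embryos. ABCC2 rose by 0.72 ± 0.16 (adjusted p = 0.00564), with 1.72-fold in anti-DJ1 and 1.58-fold in IgG embryos. For these 3 probe sets the 2 arrays of trial 2 lay above the 3 embryo arrays of trial 1.

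The leading ABCB1 probe set differed by -0.09 ± 0.16 between the trials (limma, adjusted p = 0.717), Ssc.16333.1.S1_at by 0.18 ± 0.41 (0.7805) and ABCA1 by 0.11 ± 0.25 (0.782). The interval of the leading ABCB1 probe set ran from 0.743- to 1.19-fold, so a change of the size seen in ABCC2 (1.65-fold) lies outside it. Of all 14399 probe sets 18.9% passed as higher in trial 2, 13.4% as lower and 32.3% in either direction, beside 3 higher and 0 lower of the 6 tested members. Among all probe sets 99.0% had a smaller difference than ABCC6 Ssc.19612.1.S1_at, 95.1% than Ssc.16338.1.S1_at and 81.0% than ABCC2.

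The split of all calls depends on the scaling, with 2728 higher and 1923 lower as deposited, 1957 and 2186 with quantile normalization, and 1657 and 3203 with a common 75th percentile. The median of all probe sets was 0.14, -0.0040 and -0.09 in these 3 scalings. Relative to it, ABCC6 Ssc.19612.1.S1_at stood at 1.74, 1.60 and 1.74, Ssc.16338.1.S1_at at 1.15, 1.05 and 1.15, ABCC2 at 0.58, 0.56 and 0.57, and the leading ABCB1 probe set at -0.23, -0.14 and -0.24. The 3 calls were lost without the mean-variance trend, at adjusted p = 0.0982 for ABCC2 and 0.0823 for both ABCC6 probe sets, where 0 of 14399 probe sets passed. Among the embryo arrays the EF1A ratio differed between the trials, at 8.20 (anti-DJ1) and 9.34 (IgG) in trial 2 against 24.2 (anti-DJ1), 23.9 (IgG) and 30.0 (non-injected) in trial 1, while the donor array of trial 1 had 4.23. The median hybridisation control was 1236 (anti-DJ1) and 1336 (IgG) in trial 2, against 3147 (anti-DJ1), 2937 (IgG), 6338 (non-injected) and 2695 (donor cells) in trial 1. The part of both in the differences was not tested.

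The genes whose profile over the 6 arrays was closest to each member were found by the root mean square (RMS) difference of the log2 values, each profile centred on its own mean. For ABCB1 they were CYP3A46 (RMS 0.17), the orphan receptor GPR160 (0.18) and LOC100621607 (0.21). CYP3A46, a cytochrome P450, had signals of 3433 and 3988 in anti-DJ1 embryos, 3473 and 4203 in IgG embryos and 3375 in non-injected embryos, against 6.98 in donor cells. For ABCA1 they were the adaptor gene SH3KBP1 (0.12), the granin SCG3 (0.15) and the transcription factor KLF11 (0.16). SH3KBP1 had 1259 and 1612 in anti-DJ1 embryos, 1393 and 1675 in IgG embryos and 1442 in non-injected embryos, against 59.8 in donor cells. Among the genes closest to ABCB1 and ABCA1, only SH3KBP1 was above the Tag limit in donor cells. The likeness in the size of the step from donor cells to embryos thus depends on the pseudocount.

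For ABCC2 the closest were INTS3, a subunit of the Integrator complex (0.10), the proteasome subunit PSMD11 (0.11) and WAC (0.11). PSMD11 had signals of 345 and 625 in anti-DJ1 embryos, 351 and 538 in IgG embryos and 242 in non-injected embryos, against 45.4 in donor cells. For ABCC6 they were UPB1, an enzyme of pyrimidine breakdown (0.12), the phosphatase scaffold PPP2R1A (0.16) and the mitochondrial ribosome gene MRPL18 (0.18). PPP2R1A had 187 and 562 in anti-DJ1 embryos, 178 and 664 in IgG embryos and 137 in non-injected embryos, against 108 in donor cells. Each time 6848 or 6849 probe sets were compared, over 6 arrays of which 5 are embryos.

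**Figure D3:**
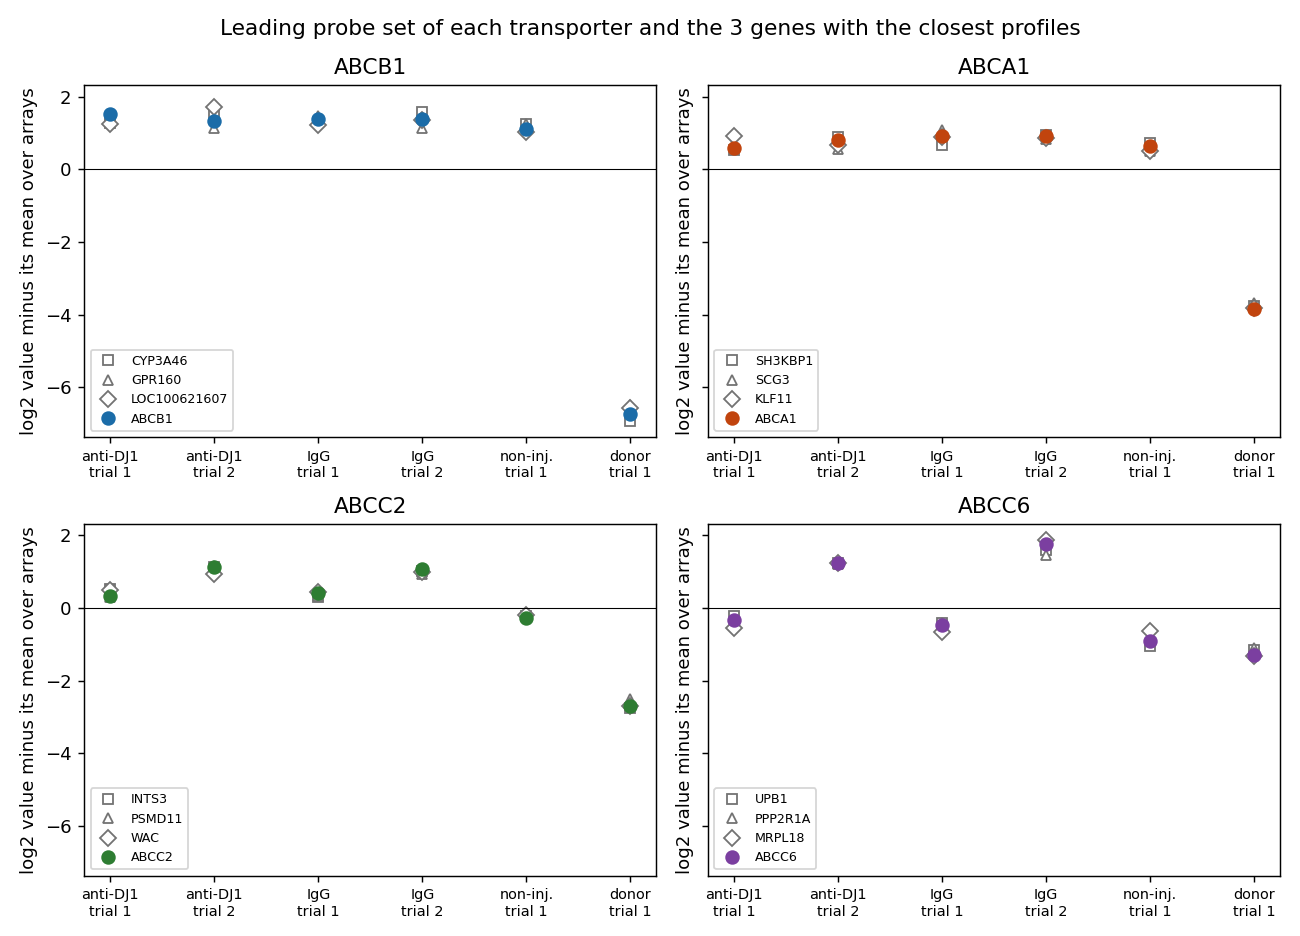
Log2 values of the leading probe set of each transporter (filled circles) and of the 3 genes with the closest profiles (open symbols) on the 6 arrays, each minus its own mean. ABCB1 and ABCA1 and their neighbours show a single step between embryos and donor cells, and ABCC6 and its neighbours are raised on the 2 arrays of trial 2. The neighbours were picked for this likeness. The height of the step depends on the pseudocount, since the donor signals of ABCB1 (1.89) and ABCA1 (6.89) are not above the Tag limit.

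The rest of the ABC family was represented by 20 probe sets of 11 genes. Not all transporters were higher in embryos than in donor cells. ABCG2, a drug exporter whose substrates overlap with those of ABCB1, had 95.7 and 123 in anti-DJ1 embryos, 106 and 147 in IgG embryos and 109 in non-injected embryos, against 5209 in donor cells (Ssc.64.1.S1_at), a log2 difference of -5.45 ± 0.23 (SD, n = 5). Its second probe set stood at -0.74, and both were above the Tag limit on all 5 embryo arrays. The antigen peptide transporter TAP1 stood at -4.15 and was above the Tag limit on 2 of 5 embryo arrays. The mitochondrial porphyrin transporter ABCB6, above it on 0, was at least 8.51-fold higher in donor cells, while the other probe sets of both were not above the Tag limit on any array.

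The fatty acid importer of peroxisomes, ABCD3, had 13209 and 10159 in anti-DJ1 embryos, 13762 and 10769.8 in IgG embryos and 17066 in non-injected embryos, against 6491 in donor cells, and its 3 probe sets were 0.82 to 1.33 higher in embryos on the log2 scale. ABCF1, a factor of translation, and ABCF2, which like it lacks membrane-spanning parts, stood 1.13 ± 0.61 and 1.99 ± 0.75 higher in embryos. ABCB11, the bile salt pump, and CFTR, a chloride channel, were above the Tag limit on at most 1 embryo array and not in donor cells. ABCA4, the retinal retinoid transporter, and ABCG8, a subunit of a sterol exporter, were above it on 3 of 5 embryo arrays each and not in donor cells. ABCA4 had 30.9 and 24.4 in anti-DJ1 embryos, 21.7 and 46.7 in IgG embryos and 73.4 in non-injected embryos, against 4.38 in donor cells. ABCG8 had 7.71 and 57.1 in anti-DJ1 embryos, 53.2 and 26.4 in IgG embryos and 67.9 in non-injected embryos, against 7.51 in donor cells. Of the 6 of these genes that were tested, 0 passed in limma in any comparison of treatments, with median differences of -0.12 for anti-DJ1 minus IgG, -0.30 for anti-DJ1 minus non-injected and -0.17 for IgG minus non-injected. The 6 tested member probe sets, which come from 4 genes, had medians of -0.11, 0.40 and 0.43 in these comparisons. Those of all probe sets were -0.0054, -0.0078 and -0.0059. Both comparisons with non-injected embryos rest on the same single array and are not independent. Between the trials 4 of the 6 were higher in trial 2 (ABCF1, ABCF2, ABCD4 and TAP1) and ABCD3 was lower. Of all probe sets 18.9% were higher and 13.4% lower. TAP1 had 9.10 and 47.9 in anti-DJ1 embryos, 9.64 and 35.3 in IgG embryos and 554 in donor cells. Its highest embryo signal, 71.1, was in non-injected embryos of trial 1. Its embryo mean of 34.6 lay under the lowest mean that passed the filter, 39.6, so TAP1 was tested through its donor signal. The ABCD3 difference of -0.37 ± 0.10 (limma, adjusted p = 0.0125) was -0.0289 with quantile normalization, where it did not pass, and ABCD4 passed neither there nor with the common percentile. ABCF1 stood at 1.002 ± 0.13 (limma, adjusted p = 1.8e-04) and ABCF2 at 1.395 ± 0.14 (adjusted p = 5.8e-05).

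**Figure D4:**
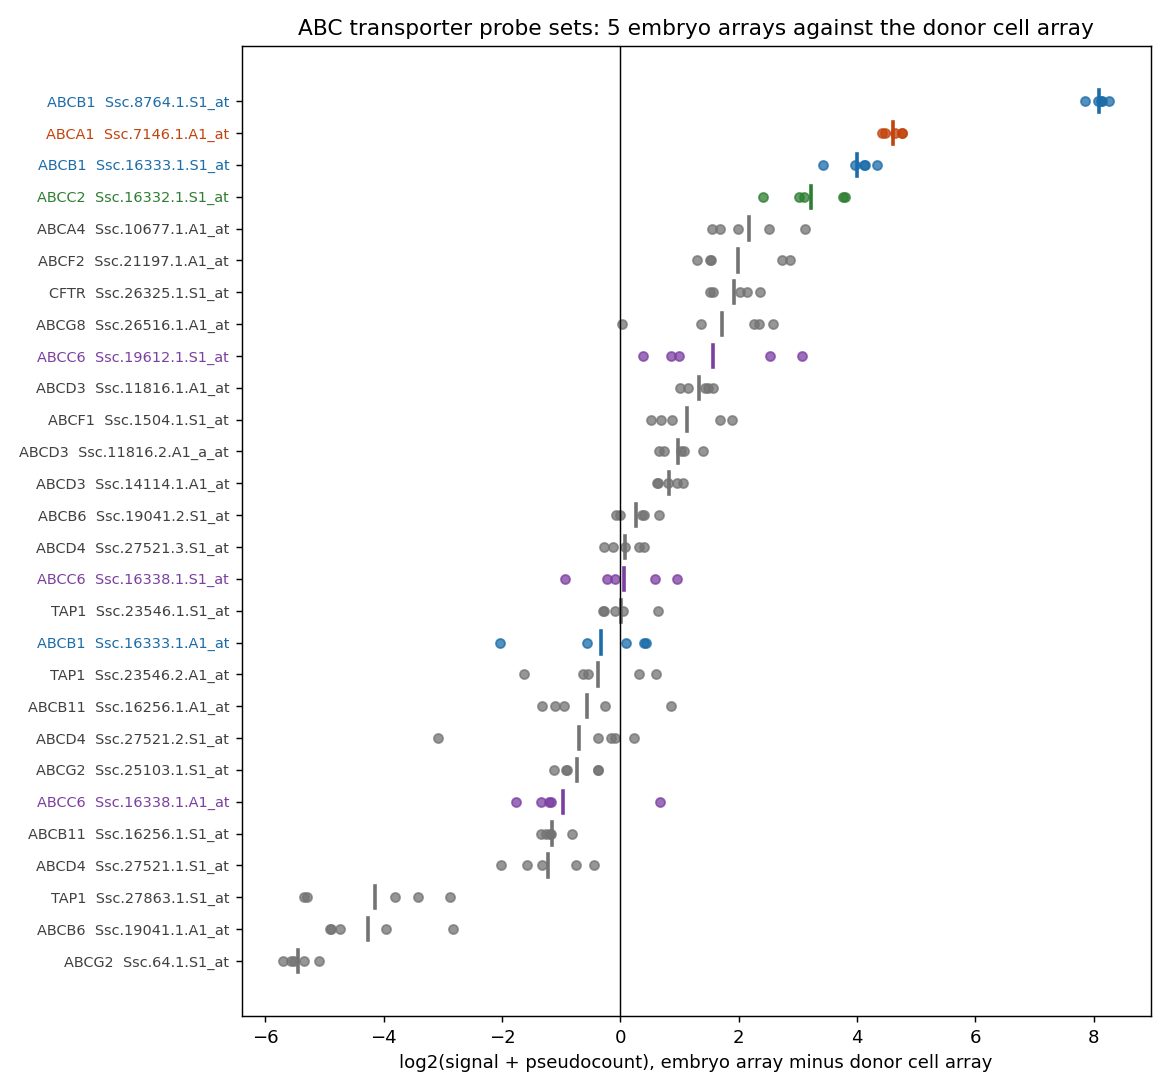
Difference in log2(signal + pseudocount) between each of the 5 embryo arrays and the donor cell array for the 28 probe sets of ABC family genes, with a bar at the mean; members are coloured and other genes grey. The tested ABCB1 probe sets, ABCA1 and ABCC2 (3.22) lie at the embryo end, and the leading ABCG2 probe set (-5.45) at the donor end. The untested ABCB1 probe set has a mean of -0.33 and the second ABCG2 probe set one of -0.74. The distances of the tested ABCB1 probe sets and ABCA1 depend on the pseudocount, since their donor signals (1.89, 2.22 and 6.89) are not above the Tag limit. The donor signal of the untested ABCB1 probe set (25.5) is not above it either.

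Genes of cholesterol handling, the setting in which ABCA1 acts, had a median embryo minus donor difference of -0.65 on the log2 scale over 18 tested genes, beside 0.06 over all probe sets. It was positive in 7 of the 18. HMGCS1, APOA1 and ACAT2 were at least 8-fold lower in embryos on this scale, as were 11.3% of all probe sets. APOE, an acceptor of exported lipid, had 85.5 and 397 in anti-DJ1 embryos, 162 and 313 in IgG embryos and 71.9 in non-injected embryos, against 8.04 in donor cells, which is at least 4.82-fold. HMGCS1, an early enzyme of cholesterol synthesis, stood at -5.98, the acceptor APOA1, above the Tag limit on 3 of 5 embryo arrays, at -3.92 and ACAT2 at -3.42. FDFT1, the enzyme that makes squalene, stood 2.81 higher in embryos and was the single gene of the list that passed between treatments. It had 18308 and 11552 in anti-DJ1 embryos, 19079 and 13418 in IgG embryos and 32255 in non-injected embryos. It fell by 0.86 ± 0.13 in anti-DJ1 (limma, adjusted p = 0.0119) and by 0.72 ± 0.13 in IgG embryos (adjusted p = 0.0293) relative to that 1 array. Neither call held without the trend, with no replicate block, with quantile normalization (-0.41 and -0.31) or with no filter on low values. The lipid-activated receptor NR1H3 (LXR alpha), known to induce ABCA1, had 37.4 and 100.3 in anti-DJ1 embryos, 72.9 and 129 in IgG embryos and 76.4 in non-injected embryos, against 197 in donor cells.

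Between trials 5 of the 18 were higher in trial 2 and 4 lower, where 18.9% of all probe sets were higher and 13.4% lower. SQLE stood at 0.78 ± 0.14 (limma, adjusted p = 0.00125) and INSIG1, which holds back cholesterol synthesis, at -0.64 ± 0.11 (adjusted p = 0.00131).

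Genes of xenobiotic metabolism and uptake, the setting of ABCB1 and ABCC2, had a median embryo minus donor difference of -0.65 over 15 tested genes, beside 0.06 over all probe sets. It was positive in 3 of them. GSTM3, a glutathione transferase whose kind of product ABCC2 exports, had 1597 and 3563 in anti-DJ1 embryos, 1449 and 3465 in IgG embryos and 1266 in non-injected embryos, against 21.1 in donor cells, at least 59.8-fold. The peptide importer SLC15A1 was at least 4.97-fold higher, while the microsomal glutathione transferase MGST1 stood at -4.99. CYP2C33, a cytochrome P450, had 79.5 and 42.9 in anti-DJ1 and 64.8 and 50.8 in IgG embryos. It had 1.69 in non-injected embryos, which is under that array's Tag limit, and its highest signal, 152, in donor cells. CYP2C33 was tested with the donor array included in the filter. With embryo arrays only, with no pseudocount or with the stricter filter it was not among the probe sets tested. It was the single gene of the list to pass between treatments, higher in anti-DJ1 (limma, adjusted p = 0.0261) and in IgG embryos (adjusted p = 0.0327), and neither call held without the trend, with no replicate block or with no filter on low values. Between trials, 5 of 15 were higher in trial 2, among them GSTM3 at 1.21 ± 0.14 (limma, adjusted p = 1.1e-04), and 0 lower, where 18.9% of all probe sets were higher and 13.4% lower. NR1I2 (PXR), known to induce ABCB1 in liver and gut, was above the Tag limit on 3 of 5 embryo arrays and not in donor cells. Its signals were 16.6 and 41.6 in anti-DJ1 embryos, 38.8 and 15.2 in IgG embryos and 81.0 in non-injected embryos. The donor signal of 30.0 lay inside this range, and NR1I2 was not among the probe sets tested.

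Cumulus cells surround the oocyte and are usually removed before nuclear transfer. Of 14 measured markers of cumulus and granulosa cells, 4 to 7 were above the Tag limit on each embryo array, with a summed signal of 1815 to 2410 in embryos and 13004 in donor cells, most of it from KRT8. FSHR and CYP11A1 were not above the limit on any array, and CYP19A1 was on 2 of 5 embryo arrays. INHBA (975 to 1495), FST (323 to 499.7), INHA (40.3 to 226) and KRT8 (60.9 to 211) were above it on all 5 embryo arrays, and HSD3B1 (30.1 to 113) on 4. The part of such cells in the transporter signals was not tested.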

How the data were processed

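RNA of 6 pig samples was hybridised to 1 Affymetrix Porcine Genome Array each, after two-cycle labelling of 50 ng of total RNA, per the labels' protocols. The authors deposited a linear intensity per probe set, for which the submitters' processing notes name MAS5; its settings and scaling target were not given in the sources used here, nor were detection calls. The table held 24123 probe sets, and 124 controls were left out of the tests. Platform annotation gave a single symbol to 10069 of the others, of which 9961 matched a RefSeq gene ID of Sscrofa11.1. Values were set to log2(signal + 4.57), the 10th percentile of all signals. The 14399 probe sets with a mean log2 value in the upper 60% were tested (6 of the 8 members), with limma 3.58.1 in R 4.3.3 (lmFit, eBayes with a mean-variance trend, two-sided, Benjamini-Hochberg over all probe sets tested, threshold 0.05) on the 6 arrays together, with terms for group and for trial. The residual degrees of freedom were 1, and the prior of the moderation was worth 10.7; the single non-injected array is assumed to vary like the replicated ones. The fit was tested on simulated data. The simulated spreads were drawn from the prior of the real fit, so that prior itself was not tested.

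The trial was kept as a block because the IgG embryos of a trial are the control of that trial in the design text. The deviations of same-trial anti-DJ1 and IgG arrays from their group means correlated at 0.588 over 14399 probe sets (these are no replicates). The design text calls the second pair biologically different samples, and the number of arrays limits the precision. A gene in a list was represented by its probe set with the highest mean. Named genes followed a rule: all member probe sets, the 3 genes closest in profile to each member, the measured ABC transporters, and from each other list those with the smallest unadjusted p or the largest embryo minus donor difference; NR1H3, NR1I2 and the cell markers were named in addition, after their values were seen. The members and lists were chosen with earlier results of these data known. Alternatives covered the pseudocount, normalization, filter, trial block, trend, donor array and single replicates.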

Additional observations from a re-analysis of the deposited data

Results flagged for a closer look

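The ABCC6 probe set Ssc.16338.1.A1_at had a signal of 33.1 in IgG embryos of trial 1, set apart from the other 4 embryo arrays, which lay between 2.40 and 5.92. Its gap to the nearest array was 0.758 of the whole range on the log2 scale, above Dixon's limit of 0.71 for 5 samples. That array also had the lowest Tag limit, at 21.4, and this probe set was not among those tested. Both ends of 8 probe sets were examined, and chance alone sets apart about 1 in 20 groups.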

How the results depend on the processing

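The member differences between treatments kept their side of the threshold under all alternatives in which they were tested. The calls for ABCC2 and ABCC6 between trials kept theirs likewise, except without the mean-variance trend, where 0 probe sets passed in that comparison. With the upper 40% of probe sets, ABCB1 Ssc.16333.1.S1_at and ABCC6 Ssc.16338.1.S1_at were not among those tested. The counts over all probe sets moved more. For anti-DJ1 minus IgG, 0 passed, and 1 with the pseudocount at the 25th percentile, 1 with quantile normalization, 1 with a common 75th percentile, 2 with embryo arrays only and 43 with the upper 40% of probe sets. For IgG minus non-injected, 182 passed, and 447 with the larger pseudocount, 312 with the common percentile, 48 with no filter, 726 with the upper 40%, 341 with embryo arrays only, and 0 without the trend or with no replicate block. For anti-DJ1 minus non-injected, 276 passed, and 589, 466, 71 and 878 under the first 4 of these, and 0 without the trend or with no replicate block. With 1 replicate left out and no replicate block, since the trial can then not be fitted with a residual degree of freedom, the counts were 0 for anti-DJ1 minus IgG, 0 for IgG minus non-injected and 0 to 1 for anti-DJ1 minus non-injected. The cause of these moves was not tested. For the trials, neither the fit without the block nor those without a replicate was run. Directions of differences that did not pass turned in places. For anti-DJ1 minus IgG with a replicate left out, the leading ABCB1 probe set ran from -0.0493 to 0.13, ABCC2 from -0.41 to 0.37 (positive at 0.31 and 0.37), ABCC6 Ssc.19612.1.S1_at from -1.31 to 0.91 (positive at 0.58 and 0.91) and Ssc.16338.1.S1_at from -1.37 to 0.16; these fits leave the trials unbalanced. Ssc.16338.1.S1_at for IgG minus non-injected was -0.0078 with the common percentile, and for anti-DJ1 minus non-injected 0.0519 with no replicate block and -0.71 to 0.82 with a replicate left out. ABCA1 for anti-DJ1 minus non-injected was -0.0144 with quantile normalization, -0.0178 with the common percentile and -0.0558 to 0.17 with a replicate left out. Between trials, ABCB1 Ssc.16333.1.S1_at was -0.0955 with quantile normalization and -0.0597 with the common percentile, and ABCA1 -0.131 and -0.134. For embryos minus donor cells, where the donor signals of ABCB1 and ABCA1 were not above the Tag limit and the pseudocount sets the size, the leading ABCB1 probe set was 8.09 with the pseudocount of 4.57, 9.86 with no pseudocount, 6.50 with the larger one and 8.31 with the common percentile, and ABCA1 4.61, then 5.32, 3.58 and 4.96, with 4.86 under quantile normalization. ABCB1 Ssc.16333.1.A1_at was 0.0984 with the common percentile. ABCC6 Ssc.16338.1.S1_at was -0.42 with trial 1 arrays only, and -0.17 to 0.31 (negative at -0.0776 and -0.17) with a replicate left out.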
